A study of Mus musculus with 8 samples.

Results

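CatSper is the sperm calcium channel, and a chosen list of 10 of its genes was examined here out of the 19906 genes of the deposited testis table: Catsper1, Catsper2, Catsper3, Catsper4, Catsperb, Catsperd, Catsperg1, Catsperg2, Catsperz and Efcab9. The members were the rows with one of these gene symbols, and all 10 passed the filter on low counts. The RNA came from the testes, taken whole, of 2-month-old males, 4 of them Tmem232-/- and 4 Tmem232+/+, and each mouse gave 1 library. In the Tmem232-/- mice a stretch of Tmem232, a gene for a transmembrane protein, had been deleted in the germ line with CRISPR-Cas9, and the Tmem232+/+ mice carried the intact gene. The deletion was present in every tissue, so that the testis values hold both germ cells and somatic cells that lacked the sequence.

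The CatSper channel sits in the membrane of the principal piece of the sperm tail. It lets calcium into the cell when the sperm is exposed to the alkaline fluids of the female tract. The 4 different proteins Catsper1 to Catsper4 form its pore, and large auxiliary proteins with long extracellular parts (Catsperb, Catsperd and the Catsperg proteins among them) stand over it as a canopy. Catsperz and the EF-hand protein Efcab9 bind to each other under the pore, where they take part in the response to pH and calcium and in the arrangement of the channel in rows along the tail. Male mice that lack a pore protein are sterile, since their sperm cannot hyperactivate. The genes are not all switched on at the same time: Catsper2 and most auxiliary genes are already transcribed in meiotic spermatocytes, whereas Catsper1, Catsper3 and Catsper4 belong mainly to the later, haploid spermatids.

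The deposited counts added up to between 15428421 and 16350871 per library. Tmem232 itself did not check the labels, because its level, in counts per 1000000 of the library's TMM-scaled total (CPM), ran from 122.1 to 147.6 under the Tmem232-/- label and from 106.3 to 111.2 under the Tmem232+/+ label, and because the table holds a single count for the whole gene, reads from outside the deleted stretch included. The gene was called higher under the Tmem232-/- label, with a log2 fold change of 0.27 (edgeR quasi-likelihood adjusted p = 0.034). Nothing other than the labels ties a library to its genotype, so every direction given here rests on them. The libraries labelled Tmem232-/- are therefore called knockout-labelled libraries here.

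In short, 4 of the 10 genes were called higher in the knockout-labelled libraries, beside 10.3% of the 15787 tested genes. The other 6 were not called in either direction. Catsper1, Catsper3, Catsper4 and Efcab9 rose to between 2.09 and 2.52 times the Tmem232+/+ level. No member was called lower, beside 1.46% of all tested genes. The pore genes thus fell into a set of 3 that rose and 1, Catsper2, that was not called, and the pair of cytoplasmic regulators was also divided, with Efcab9 higher and Catsperz not called.

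Sequence before an annotated start is shown for 3 of the called members and, for contrast, for Catsper2, the pore gene that was not called. Each is the 250 bases before the transcription start that RefSeq gives on GRCm38.p6, the build of the deposited table, printed 5′ to 3′ on the strand of the gene, and capitals mark every CG dinucleotide.
Catsper3: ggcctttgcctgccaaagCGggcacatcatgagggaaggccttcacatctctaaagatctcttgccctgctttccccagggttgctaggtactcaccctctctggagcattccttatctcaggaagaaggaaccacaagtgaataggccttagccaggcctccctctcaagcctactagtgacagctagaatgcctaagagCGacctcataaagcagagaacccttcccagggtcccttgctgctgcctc
Catsper4: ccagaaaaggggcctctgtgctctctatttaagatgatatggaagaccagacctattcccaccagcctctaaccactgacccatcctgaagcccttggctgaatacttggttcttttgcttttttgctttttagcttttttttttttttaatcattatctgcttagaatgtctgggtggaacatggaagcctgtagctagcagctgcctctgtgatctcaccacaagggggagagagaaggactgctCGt
Efcab9: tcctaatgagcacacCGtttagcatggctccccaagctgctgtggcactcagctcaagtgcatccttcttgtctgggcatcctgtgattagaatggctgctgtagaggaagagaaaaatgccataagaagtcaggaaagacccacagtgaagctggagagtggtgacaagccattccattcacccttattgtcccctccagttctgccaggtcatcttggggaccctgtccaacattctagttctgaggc
Catsper2: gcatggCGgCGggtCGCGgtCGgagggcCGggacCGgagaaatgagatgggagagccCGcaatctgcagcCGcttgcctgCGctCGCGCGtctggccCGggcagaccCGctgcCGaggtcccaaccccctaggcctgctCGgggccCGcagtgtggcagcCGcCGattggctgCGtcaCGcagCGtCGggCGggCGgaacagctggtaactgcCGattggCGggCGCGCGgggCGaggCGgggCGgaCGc
The Catsper3 stretch is chr13:55784329-55784578 on the plus strand, the Catsper4 stretch is chr4:134227384-134227633 on the minus strand, the Efcab9 stretch is chr11:32527575-32527824 on the minus strand and the Catsper2 stretch is chr2:121413793-121414042 on the minus strand. The Efcab9 stretch lies inside the gene as GENCODE and the deposited table draw it, since GENCODE places the 5′ end of Efcab9 further upstream, so its CG count describes the RefSeq start only. The Catsper2 stretch lies inside the table's Catsper2 span and inside the 5′ end of Pdia3, which overlaps Catsper2 head to head by 18 bases in GENCODE, so its CG dinucleotides do not belong to Catsper2 alone. The Catsper2 stretch held 35 CG dinucleotides, while Catsper3 had 2, and Catsper4 and Efcab9 had 1 each. Over all 32817 upstream stretches of this length the median was 6, and 97.4% of them held as many as Catsper2 or fewer.

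A low number of CG dinucleotides did not by itself go with a call. Catsperb, which was not called, also had 1, Catsperz had 7, Catsperg1 had 7 and 5 before its 2 annotated starts, and Catsperd had 25 and 11 before its 2. Of the 10 members, 8 matched an entry, and Catsper1 and Catsperg2 did not. The CG count was chosen after the sequences had been seen. Exact matches were also searched on both strands for motifs of factors known in spermatids. The full cAMP response element TGACGTCA occurred in no member and in 1.55% of all stretches. Its shorter core TGACG, which the full element contains, occurred once in Catsper2, in reverse orientation at bases 77 to 73 before the start, and 3 times before the more distal start of Catsperd, against 17.7% of all stretches with at least 1. The RFX core GTTGCC and the SOX motif ACAATGG were found in no member, against 10.4% and 3.02% of all stretches. The letters TATAAA occurred once before one Catsperg1 start and in 12.4% of all stretches. A match is a description of the letters and no evidence of binding.

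Catsper1, the pore protein with a long histidine-rich N terminus, showed the largest difference of the 10 genes. Its gene lies on chromosome 19 (GRCm38, chr19:5335741-5344280, plus strand, 11 or 12 exons in its coding transcripts). In replicates 1 to 4 of the knockout-labelled libraries its level was 111.7, 115.2, 101.1 and 90.1 CPM, and in replicates 1 to 4 of the Tmem232+/+ libraries it was 38.9, 35.5, 43.1 and 48.6 CPM. The groups did not overlap, and the lowest knockout-labelled library stood well above the highest Tmem232+/+ library. The log2 fold change was 1.33 (SE 0.109, edgeR quasi-likelihood adjusted p = 2.41e-05), a 2.52-fold rise with a 95% interval from 2.13 to 2.97.

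Catsper3 (chr13:55784568-55808998, plus strand, 8 exons) codes for a pore protein without which the channel does not assemble. It had 41.8, 41.7, 36.7 and 35.7 CPM in the knockout-labelled libraries and 15.1, 13.3, 18.6 and 17.7 CPM in the Tmem232+/+ libraries. All 4 values of the first group were higher than all 4 of the second. The log2 fold change was 1.27 (SE 0.112, adjusted p = 3.24e-05), with an interval from 1.02 to 1.51.

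Catsper4 (chr4:134211970-134227383, minus strand, 4 to 11 exons in its coding transcripts), the remaining called pore gene, had 70.4, 62.3, 52.7 and 54.0 CPM in the knockout-labelled libraries. It had 25.5, 22.3, 36.7 and 29.9 CPM in the Tmem232+/+ libraries, of which replicate 3 was the highest. The groups stayed apart even so. The log2 fold change was 1.06 (SE 0.147, adjusted p = 4.44e-04), or 2.09-fold with an interval from 1.67 to 2.62.

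Efcab9 (chr11:32522751-32532081, minus strand, 3 or 4 exons), the calcium sensor of the complex, was the most variable of the called genes. Its level was 89.8, 71.7, 60.5 and 74.1 CPM in the knockout-labelled libraries and 29.8, 27.1, 48.6 and 34.9 CPM in the Tmem232+/+ libraries. The highest Tmem232+/+ value, again in replicate 3, was below the lowest value of the other group. The log2 fold change was 1.08 (SE 0.173, adjusted p = 0.0013), and its interval from 0.70 to 1.46 overlapped those of the called pore genes.

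Catsper2 (chr2:121392631-121413792, minus strand, 13 exons) was the only pore gene without a call. It had 285.7, 254.9, 246.8 and 247.0 CPM in the knockout-labelled libraries and 251.0, 225.7, 266.0 and 229.1 CPM in the Tmem232+/+ libraries. The ranges overlapped. Its log2 fold change of 0.09 (SE 0.078, adjusted p = 0.505) had an interval from -0.08 to 0.26, which leaves out a rise of the size seen for the other pore genes. The table draws Catsper2 over a longer stretch than GENCODE does, one that covers 96.9% of Pdia3. GENCODE has the genes on opposite strands, but the table lists Catsper2 on the plus strand, the strand of Pdia3, as it also does Catsperz and Efcab9, which GENCODE and RefSeq place on the minus strand. Whether the authors counted by strand is not given in the sources used here, and by the table's strand such counting would not separate Catsper2 from Pdia3. A share of Pdia3 reads in the Catsper2 count was not tested. Pdia3, a protein disulfide isomerase, had its own row with 711.5 ± 30.1 CPM (SD, n = 4) in the knockout-labelled libraries and 703.7 ± 24.4 CPM in the Tmem232+/+ libraries.

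**Figure D1:**
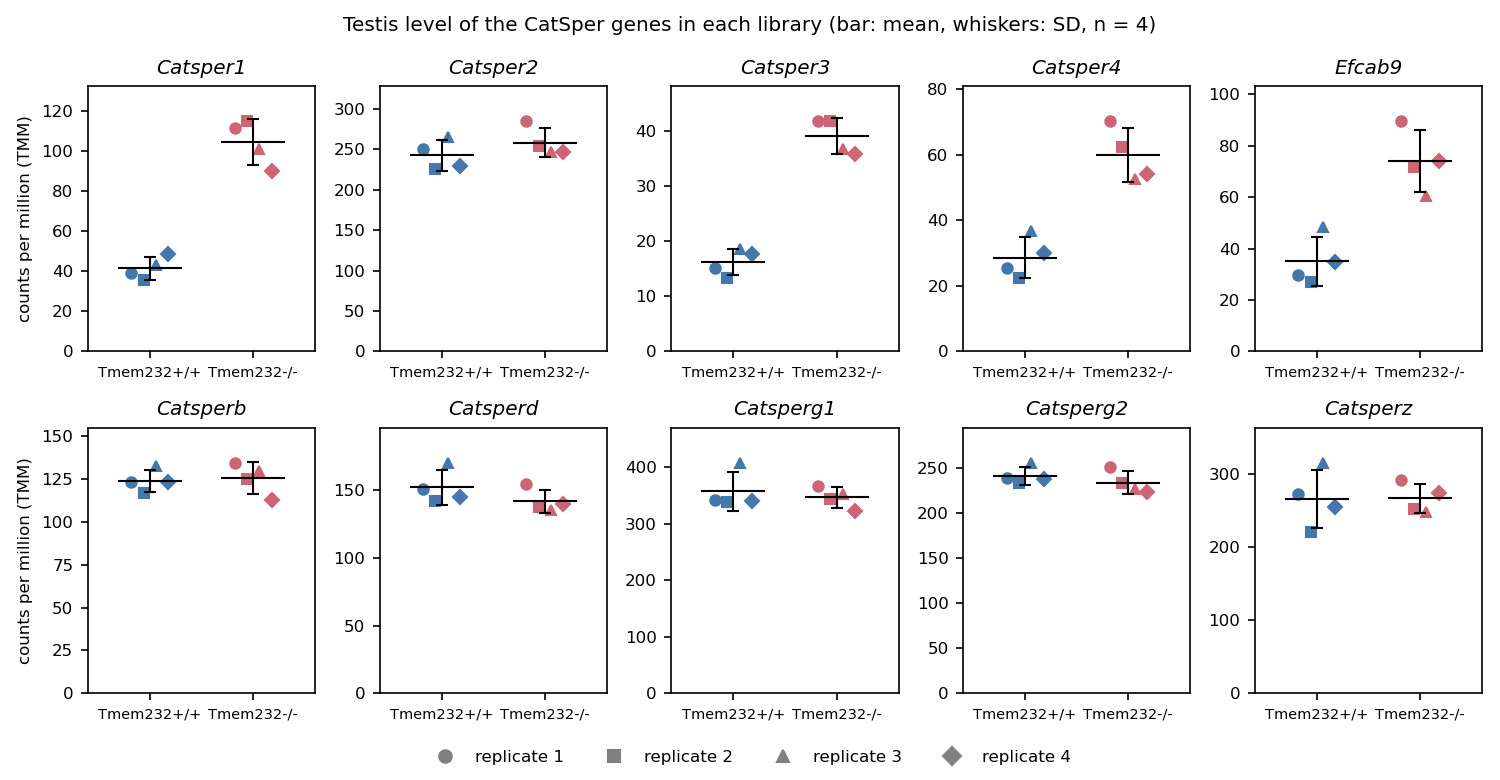
Level of each CatSper gene in CPM (vertical axis, starting at 0) in every library, by genotype label (horizontal axis). Symbols mark the replicate, bars the mean and whiskers the SD (n = 4). In the panels of Catsper1, Catsper3, Catsper4 and Efcab9 the genotypes stand apart, for example 90.1 to 115.2 against 35.5 to 48.6 CPM for Catsper1, and in the other 6 panels they overlap.

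The auxiliary subunits gave another picture from the 3 called pore genes. Catsperb (chr12:101404653-101626009, plus strand, 27 exons), which forms part of the canopy, had 134.4, 124.8, 129.4 and 112.8 CPM in the knockout-labelled libraries and 123.4, 116.6, 132.3 and 122.9 CPM in the Tmem232+/+ libraries. Its values were mixed between the groups, with a log2 fold change of 0.02 (SE 0.072, adjusted p = 0.901) and an interval from -0.14 to 0.18.

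Catsperd (chr17:56628143-56664456, plus strand, 12 to 22 exons), a subunit needed for a stable channel, had 154.1, 137.1, 134.8 and 139.8 CPM in the knockout-labelled libraries. It had 150.4, 141.6, 170.0 and 145.0 CPM in the Tmem232+/+ libraries. Replicate 3 was the highest of the latter, and the groups overlapped. The log2 fold change was -0.10 (SE 0.076, adjusted p = 0.442), with an interval from -0.27 to 0.07.

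Catsperg1 and Catsperg2 are mouse copies of the gene for the gamma subunit. They lie 483183 bases apart on chromosome 7, at chr7:29181321-29214035 and chr7:29697219-29727032, both on the minus strand. Of the 50-base windows in the coding transcripts of Catsperg1, 28.0% occurred without a mismatch in those of Catsperg2, and 38.0% of the windows of Catsperg2 occurred in Catsperg1. Both genes had counts that were not whole numbers, and how reads that fit both copies were handled is not given in the sources used here, so the level of each alone is uncertain.

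Catsperg1 had 367.1, 344.4, 352.5 and 323.5 CPM in the knockout-labelled libraries and 342.7, 338.7, 408.4 and 339.8 CPM in the Tmem232+/+ libraries. Replicate 3 of the Tmem232+/+ group stood apart from its other 3 libraries. Its log2 fold change was -0.04 (SE 0.079, adjusted p = 0.769). Catsperg2 had 252.1, 233.9, 226.9 and 223.4 CPM against 239.4, 233.8, 256.5 and 238.3 CPM, with a log2 fold change of -0.05 (SE 0.065, adjusted p = 0.682). Neither gene separated the genotypes, and the intervals ran from -0.22 to 0.13 for Catsperg1 and from -0.19 to 0.10 for Catsperg2.

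Catsperz (chr19:6922371-6925380, minus strand, 2 to 5 exons), the partner of Efcab9, had 291.5, 251.1, 248.2 and 273.5 CPM in the knockout-labelled libraries and 272.3, 220.5, 315.0 and 254.0 CPM in the Tmem232+/+ libraries. The Tmem232+/+ libraries spread over a wider range than, and on both sides of, the others. The log2 fold change was 0.00 (SE 0.104, adjusted p = 0.988), with an interval from -0.23 to 0.23. Catsperz shares 1415 bases with the potassium channel gene Kcnk4 on the same strand, and its counts were not whole numbers. Kcnk4 had between 42 and 70 counts per library, while Catsperz had between 3642 and 4974.

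The calls were set against all genes. By the edgeR test at an adjusted p under 0.05, 4 of 10 members were higher, beside 10.3% of the 15787 tested genes, and 0 were lower, beside 1.46%. When the rule was a change of at least 2-fold with p under 0.05 before adjustment, the same 4 were higher, beside 5.48% of all genes, and 0 were lower, beside 0.114%. This count of 4 became 2 without replicate 1 of the knockout-labelled or without replicate 2 of the Tmem232+/+ libraries, as Catsper4 and Efcab9 then fell short of 2-fold. The CPM values of the genotypes did not overlap in the same 4 members in the higher direction, beside 11.8% of all genes, and in 0 in the lower direction, beside 6.88%. At an unadjusted p under 0.05 no member was lower either, beside 10.5% of all genes, and DESeq2 and limma-voom also called 0 members lower and 4 higher. The median log2 fold change was 0.05 over the 10 members and -0.05 over all tested genes, so the median of the members hides the division between the 4 called genes, at 1.06 to 1.33, and the 6 others, at -0.10 to 0.09. With 4 mice a group the smallest two-sided p of an exact permutation test was 0.029, and each of the 4 called members reached it.

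**Figure D2:**
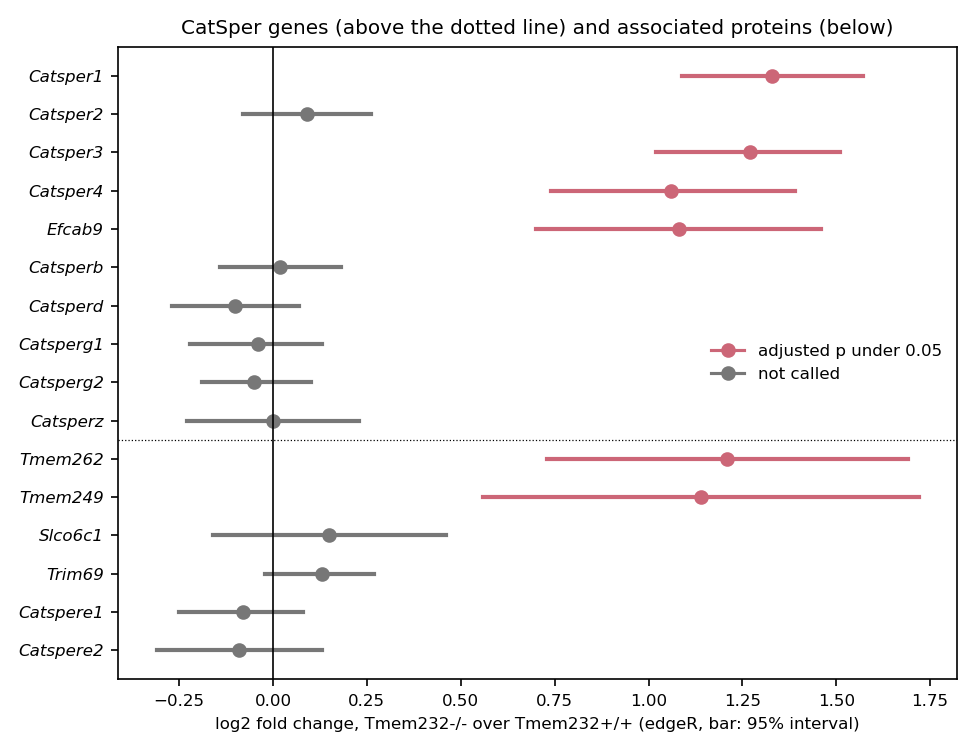
Log2 fold change of the CatSper genes and of 6 associated proteins (vertical axis) in the knockout-labelled over Tmem232+/+ libraries (horizontal axis), with 95% intervals from edgeR. Red marks an adjusted p under 0.05. The 4 called CatSper genes lie between 1.06 and 1.33, and the intervals of the other 6 all lie between -0.27 and 0.26.

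Levels of different genes were compared per transcript length, in FPKM (fragments per kilobase of transcript, scaled to the depth of the library). In the Tmem232+/+ libraries Catsperz was the highest at 441.5 ± 63.7 FPKM (SD, n = 4), followed by Catsper2 at 122.9 ± 12.0 and Catsperg1 at 80.2 ± 9.02. Catsperg2 at 65.9 ± 3.98, Catsperd at 65.7 ± 8.0 and Efcab9 at 59.4 ± 16.8 could not be ordered, since the libraries of each overlapped those of the next. Catsperb came next at 35.5 ± 1.96. The lowest were the 3 called pore genes, Catsper1 at 22.2 ± 4.29, Catsper4 at 19.2 ± 4.34 and Catsper3 at 14.0 ± 2.15 FPKM, whose libraries also overlapped between neighbours. Every pore gene other than Catsper2 was thus below every auxiliary gene, and the highest mean was 31.5 times the lowest.

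In the knockout-labelled libraries this order was narrower, with the highest mean 13.1 times the lowest. Catsperz stayed first at 432.2 ± 29.8 FPKM. Efcab9 moved to 122.4 ± 18.8 FPKM, where its libraries overlapped those of Catsper2 at 126.7 ± 8.58. Catsper1 stood at 52.6 ± 3.34, Catsper4 at 39.0 ± 4.61 and Catsper3 at 33.1 ± 2.42 FPKM, the latter 2 with ranges that overlapped that of Catsperb at 35.1 ± 2.02. The places of Catsper2, Catsperz and the Catsperg genes in both orders are uncertain to the extent that their counts hold reads of the overlapping or similar genes named above, which was not tested.

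**Figure D3:**
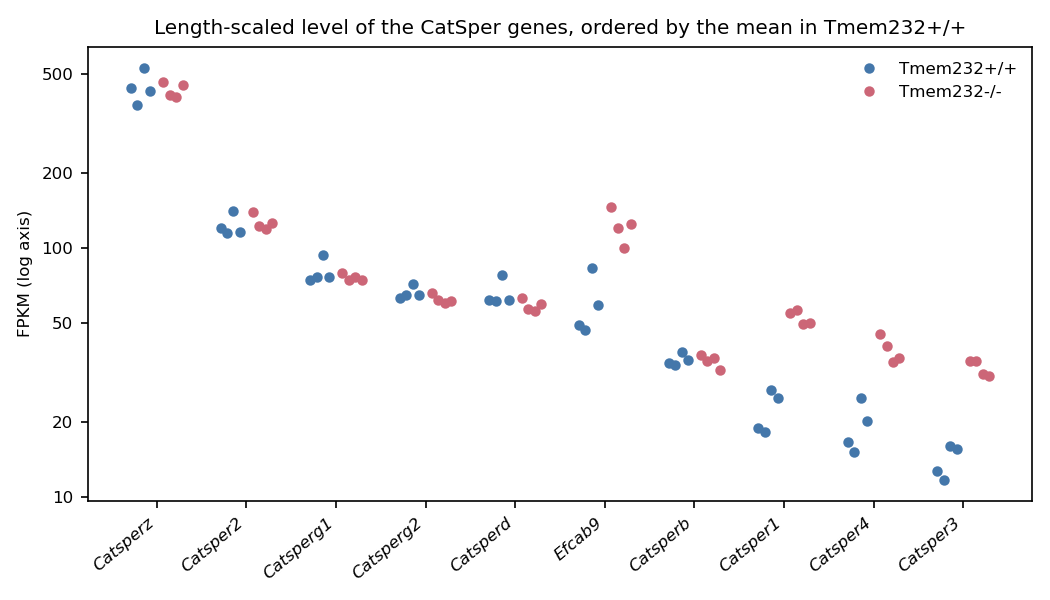
FPKM (vertical axis, log scale) of each CatSper gene in every library, ordered from left to right by the mean in the Tmem232+/+ libraries (blue), with the knockout-labelled libraries in red. The 4 called genes lie in the lower part of the order, from 14.0 to 59.4 FPKM in the Tmem232+/+ libraries, against 35.5 to 441.5 FPKM for the 6 others.

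The make-up of the pore transcripts differed accordingly. Of the summed FPKM of the 4 pore genes, Catsper2 made up 69.1% ± 3.09 (SD, n = 4) in the Tmem232+/+ libraries and 50.4% ± 1.55 in the knockout-labelled libraries. Catsper1 took 12.4% ± 1.39 and 21.0% ± 0.851 of the sum, in the same order. Catsper4 went from 10.7% ± 1.22 to 15.5% ± 0.789, and Catsper3 from 7.85% ± 0.689 to 13.2% ± 0.558. The transcript shares were closer to equal in the knockout-labelled libraries, though Catsper2 remained the most abundant in all 8 libraries. In an assembled channel the 4 pore proteins are present in equal number, but shares of testis RNA do not give those of protein. By proteomics the paper reports lower levels of calcium ion channel proteins in Tmem232-/- sperm. The shares rest on the Catsper2 count as deposited, with the reservation on Pdia3.

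Ratios within a library need no scaling between libraries, and 4 were compared. The log2 ratio of Efcab9 to its partner Catsperz was -1.70, -1.81, -2.04 and -1.88 in the knockout-labelled libraries and -3.19, -3.03, -2.70 and -2.86 in the Tmem232+/+ libraries. The log2 ratio of Catsper1 to Catsper2 was -1.35, -1.15, -1.29 and -1.46 in the former and -2.69, -2.67, -2.62 and -2.24 in the latter. Neither ratio overlapped between the genotypes. The differences were 1.09 and 1.24, and each had the smallest p the exact two-sided permutation test allows, 0.029, which became 0.057 after adjustment over the 4 ratios and so missed 0.05.

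The other 2 ratios compared genes with similar fold changes. The log2 ratio of Catsper3 to Catsper4 had a mean of -0.61 ± 0.099 (SD, n = 4) in the knockout-labelled libraries and -0.81 ± 0.12 in the Tmem232+/+ libraries, a difference of 0.20 (exact permutation p = 0.057, adjusted 0.076). The ratio of Catsperg1 to Catsperg2 had a mean of 0.57 ± 0.046 and 0.56 ± 0.076 (exact permutation p = 0.771, adjusted 0.771), with the reservation on shared reads. The genotypes overlapped in both ratios. With FPKM in place of CPM the first 3 of the 4 ratios passed, each with an adjusted exact permutation p of 0.038. The first 2 of them could not get a smaller unadjusted p than the 0.029 they had from CPM. Their change came from the adjustment over the 4 ratios.

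**Figure D4:**
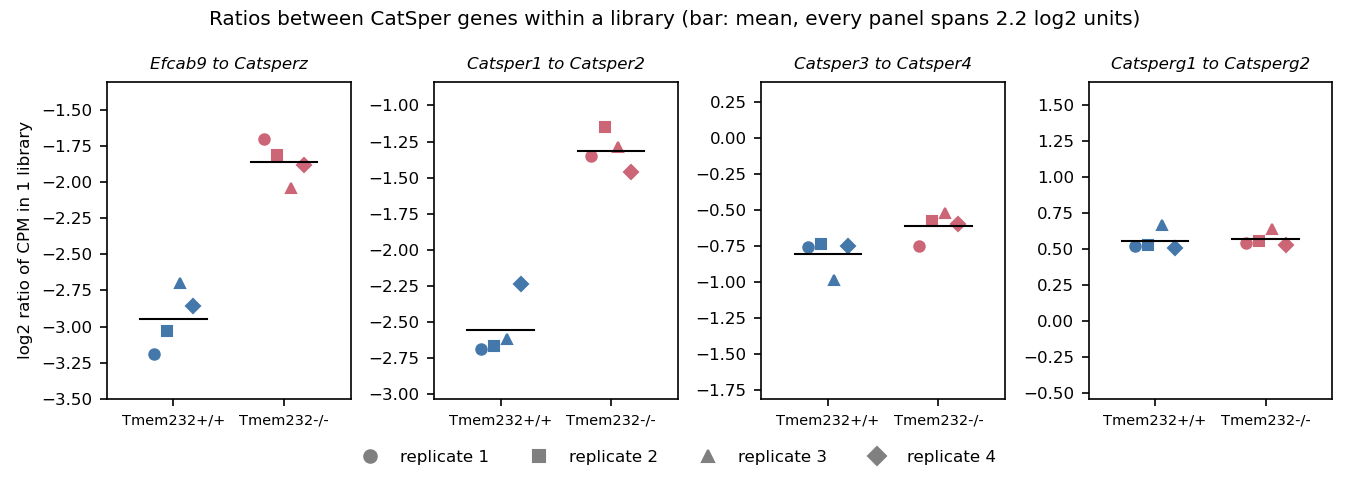
Log2 ratio of the CPM of 2 CatSper genes within each library (vertical axis, each panel spanning 2.2 log2 units), by genotype label (horizontal axis). Symbols mark the replicate and bars the mean. The ratios of Efcab9 to Catsperz and of Catsper1 to Catsper2 are higher in all 4 knockout-labelled libraries, by 1.09 and 1.24 on average, and the other 2 overlap.

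Markers of spermatids moved with the called genes. The counts of called markers below stand beside 10.3% called higher and 1.46% called lower over all tested genes. All 8 round spermatid markers (Acrv1, Spaca1 and others of the acrosome and head) were called higher, with log2 fold changes from 0.63 to 1.57, and so were all 11 elongating spermatid markers (protamines, transition proteins and tail genes such as Odf1), from 1.28 to 4.44. Their summed level was 826.3 to 1041 CPM in the knockout-labelled libraries against 380.5 to 553.2 CPM in the Tmem232+/+ libraries for the round list, and 1119 to 1960 against 268.0 to 595.4 CPM for the elongating list. Of 9 spermatocyte markers 1 was called, lower, with summed levels of 1581 to 2077 and 1720 to 2118 CPM that overlapped. Of 7 spermatogonial markers 3 were called, all lower, at 192.6 to 210.1 against 233.1 to 260.2 CPM. Of the other lists, 2 of 4 peritubular myoid markers were called, both lower, and 0 of 29 tested markers of Sertoli cells, Leydig cells, macrophages, endothelium, red blood cells and epididymis were called by edgeR (8 had an unadjusted p under 0.05, 5 of them of Leydig cells, and DESeq2 called 2 and limma-voom 1). The Leydig list had a median log2 fold change of 0.46. The epididymal markers were uneven, with a summed level of 0 to 6.19 CPM in the knockout-labelled and 0 to 31.7 CPM in the Tmem232+/+ libraries. Crisp1 and Adam7 were at 0 in 3 libraries each and Lcn5 in 6. In a bulk sample a change in the number of cells of a type and a change in RNA per cell cannot be told apart, and the part of spermatid content in the CatSper differences was not tested.

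Set against the mean log2 level of the round spermatid markers in the same library, the difference between the called and the other genes stayed as it was, and the zero point moved to the called genes. The marker mean itself was 6.49 ± 0.17 in the knockout-labelled and 5.39 ± 0.26 in the Tmem232+/+ libraries (SD, n = 4), a difference of 1.10. Relative to it the 4 called genes differed little, by 0.23 for Catsper1, 0.18 for Catsper3, -0.02 for Catsper4 and 0.00 for Efcab9, and the genotypes overlapped in each. The 6 genes without a call were lower relative to it in every knockout-labelled library than in any Tmem232+/+ library, by 1.01 for Catsper2, 1.09 for Catsperb, 1.20 for Catsperd, 1.14 for Catsperg1, 1.15 for Catsperg2 and 1.09 for Catsperz. With each marker left out in turn, the difference ranged from 0.17 to 0.30 for Catsper1 and from -1.08 to -0.94 for Catsper2. These are descriptions, since the markers came from the same libraries.

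The mean of the elongating spermatid markers differed by more than any CatSper gene, though the marker with the smallest rise, at 1.28, lay below Catsper1 and close to Catsper3. The mean log2 level of the list was 2.72 higher in the knockout-labelled libraries, so that all 10 genes were lower relative to it, from a difference of -1.38 for Catsper1 to -2.82 for Catsperd. The called genes lay between -1.64 and -1.38 and the others between -2.82 and -2.62, without overlap between the genotypes in any of the 10.

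**Figure D5:**
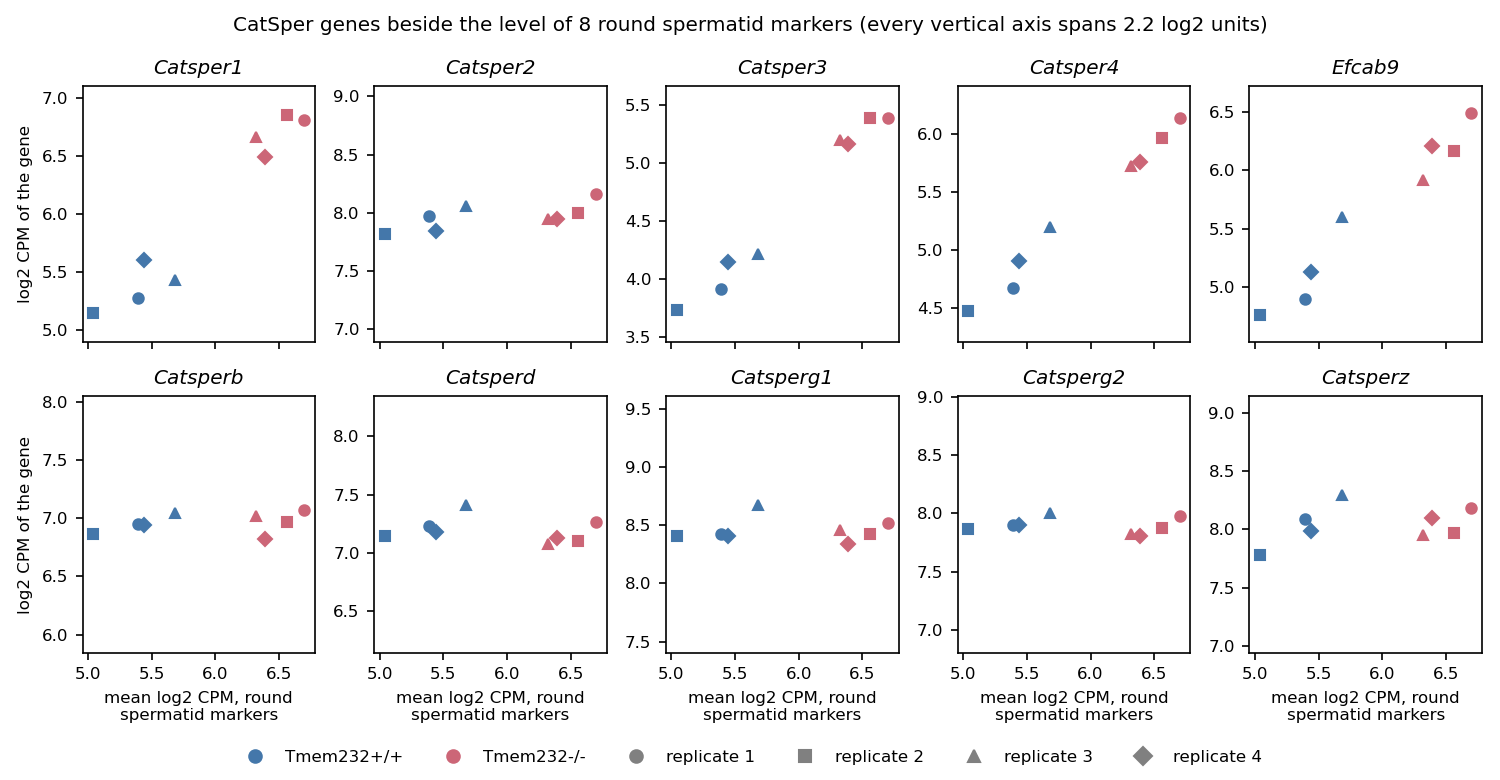
Log2 CPM of each CatSper gene (vertical axis, each panel spanning 2.2 log2 units) beside the mean log2 CPM of 8 round spermatid markers (horizontal axis), with 1 point per library, coloured by genotype label and shaped by replicate. The 4 called genes run upward along the diagonal from the Tmem232+/+ to the other libraries, and the 6 others are at a like level in both genotypes, although within the Tmem232+/+ group Catsperz, for example, goes from 220.5 CPM in replicate 2 to 315.0 CPM in replicate 3. No p-value is attached, since all points share their libraries' depth and composition.

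The order of the libraries within a genotype was alike for most members. Replicate 2 was the lowest of the 4 Tmem232+/+ libraries for 10 of 10 CatSper genes, beside 29.9% of all tested genes. Replicate 3 was the highest of them for 9 of 10, with Catsper1 as the exception, beside 36% of all genes. These 2 libraries were also the lowest and the highest of the Tmem232+/+ group in the round spermatid marker mean, at 5.04 and 5.68, and in the elongating one, at 3.14 and 4.76. Among the knockout-labelled libraries, replicate 1 was the highest for 9 of 10 CatSper genes, again all but Catsper1, beside 31.6% of all genes, and it had the highest marker means, 6.70 and 7.02. The part of spermatid content in this order was not tested either.

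The 5 genes whose profile over the 8 libraries was most like the mean standardised profile of the CatSper genes were Gm973 (Pearson r = 0.988), Ecsit (0.974), Enkur (0.973), Ube2u (0.971) and Bora (0.967), out of 15777 tested genes. Between the genotypes 0 of the 5 were called by edgeR, DESeq2 or limma-voom and 0 had an unadjusted p under 0.05, with log2 fold changes from 0.07 for Bora to 0.29 for Enkur, a gene for a protein of the sperm flagellum. The likeness is over 8 libraries that share depth and composition and carries no p-value. Among the CatSper genes, Catsper2 was the most like the mean of the other 9 (r = 0.93) and Catsperd the least (r = 0.38).

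Proteins known to accompany the channel were divided in a similar way. Of 8 listed genes 6 were tested, 2 were called higher and 0 lower, beside 10.3% and 1.46% of all tested genes, with a median log2 fold change of 0.14. Tmem262, a small transmembrane protein of the complex, had 9.52, 6.40, 7.08 and 7.87 CPM in the knockout-labelled libraries and 2.31, 2.60, 4.75 and 3.69 CPM in the Tmem232+/+ libraries. Its log2 fold change was 1.21 (SE 0.220, adjusted p = 0.003). Tmem249, another small transmembrane component, had 19.0, 14.3, 11.2 and 16.5 CPM against 5.48, 4.0, 10.9 and 7.43 CPM, with a log2 fold change of 1.14 (SE 0.264, adjusted p = 0.015). Its groups nearly touched in CPM and overlapped in FPKM. Without replicate 1 of the knockout-labelled libraries its adjusted p became 0.051. The canopy genes Catspere1 (-0.08, adjusted p = 0.517) and Catspere2 (-0.09, adjusted p = 0.613), the transporter Slco6c1 (0.15, adjusted p = 0.535) and Trim69 (0.13, adjusted p = 0.274) were not called.

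Other genes of sperm ion transport and calcium signalling gave 8 called higher and 0 called lower of 17 tested, beside the same 10.3% and 1.46%, with a median log2 fold change of 0.45. The called genes included Atp1a4 (1.90), the sodium pump subunit of sperm, Akap4 (1.67), a fibrous sheath scaffold, and Abhd2 (1.38), a lipase. Lrrc52 (1.37) and Kcnu1 (0.96), the subunits of the sperm potassium channel, were also called. So were Plcz1 (1.23), the sperm phospholipase that triggers calcium waves in the egg, and Cabyr (1.20), a calcium-binding tail protein. The last was Adcy10 (0.62), the soluble adenylyl cyclase. The call of Adcy10 (adjusted p = 0.036) was lost in several alternatives, and its CPM values overlapped between the genotypes. The other 9 were not called, Slc9c1, the sodium-proton exchanger of sperm, among them.

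Voltage-gated calcium channel genes of other tissues served as a contrast. Of 9 tested, 1 was called higher and 0 lower, a share near the 10.3% and 1.46% of all genes, with a median log2 fold change of 0.00. Cacna1a, the pore subunit of P/Q-type channels in neurons, had a log2 fold change of 0.67 (adjusted p = 0.0073) at 0.823 ± 0.0741 against 0.538 ± 0.0936 FPKM (SD, n = 4). Its call held in all 18 alternatives, but the log2 fold change ranged from 0.25, with FPKM and a pseudocount of 1, to 0.78. Cacna1h, a T-type channel gene that was not called, stood at 28.7 ± 4.01 FPKM in the Tmem232+/+ libraries, above the means of Catsper1, Catsper4 and Catsper3 there. In none of the 3 lists was a gene lower at an unadjusted p under 0.05, and DESeq2 and limma-voom called 0 of their genes lower.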

How the data were processed

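RNA-seq libraries from the testes of 4 mice per genotype label were compared, 1 library per mouse. The authors mapped clean paired reads to GRCm38.p6 with HISAT and Bowtie2, quantified genes with StringTie and featureCounts, and deposited estimated counts and FPKM in 1 table. The deposited estimated counts were not whole for 10.7 to 11.2% of genes and were rounded. Columns of the authors' own comparison (group means, fold changes, p-values) were not used. Samples were grouped by the titles in the labels. edgeR 4.0.16 (filterByExpr, TMM, quasi-likelihood test, Benjamini-Hochberg adjustment over 15787 genes) was fitted to all 8 libraries with no covariate, and the code was tested on simulated data. Ratios were compared with exact two-sided permutation tests. DESeq2 1.42.0, limma 3.58.1, other scalings and filters, FPKM with a pseudocount of 1 or 0.1, a replicate block and leaving out each library were tried. Gene models came from GENCODE vM21 and upstream sequences from RefSeq, both on GRCm38. Protein sequences were not analysed here. Totals of 15428421 to 16350871 counts per library gave every member at least 220 counts in each library. By rule, named genes were the 10 members, the called genes of 3 related lists, the 5 genes with the most similar profile, and markers as lists with their defining genes. Outside it, Tmem232, the overlapping genes Pdia3 and Kcnk4, the uncalled Catspere1, Catspere2, Slco6c1, Trim69, Slc9c1 and Cacna1h, and the markers at 0 (Crisp1, Adam7, Lcn5) were named after their values had been seen. The members and the gene lists were chosen with earlier results of these data known.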

Additional observations from a re-analysis of the deposited data

Results flagged for a closer look

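Of 64 groups of 4 libraries examined for a single library far from the others, 9 were marked. Chance would mark about 1 in 20, or 3.2 of 64, if the groups were independent. They were not, since they share the same libraries and some genes enter both alone and in a ratio. Gm973, Ube2u and Bora were moreover chosen for their likeness to the CatSper profile. No excess over chance can therefore be read from the 9. Replicate 3 of the Tmem232+/+ libraries had 408.4 CPM of Catsperg1, while the other 3 lay between 338.7 and 342.7 CPM. The same library had a log2 ratio of Catsper3 to Catsper4 of -0.99, against -0.76 to -0.74 in the others, and of Catsperg1 to Catsperg2 of 0.67, against 0.51 to 0.53. Replicate 4 of the Tmem232+/+ libraries had a log2 ratio of Catsper1 to Catsper2 of -2.24, against -2.69 to -2.62, and 38.5 CPM of Kcnu1, against 31.1 to 32.0. Replicate 1 of the libraries labelled Tmem232-/- had 107.0 CPM of Plcz1, against 81.6 to 85.9. It also had 159.0 CPM of Gm973, against 118.7 to 124.1, 136.7 CPM of Ube2u, against 110.5 to 112.9, and 127.4 CPM of Bora, against 109.6 to 110.2.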

How the results depend on the processing

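Catsper1, Catsper3, Catsper4 and Efcab9 were called higher, and no member lower, in all 18 alternatives, 8 of which left out a library. Across them the log2 fold change ranged from 1.22 to 1.42 for Catsper1, 1.19 to 1.37 for Catsper3, 0.96 to 1.24 for Catsper4 and 0.97 to 1.30 for Efcab9. The number of members higher by a fold change of 2 or more ranged from 2 to 4 when a library was left out. It was 2 without replicate 1 of the libraries labelled Tmem232-/- and without replicate 2 of the Tmem232+/+ libraries, where Catsper4 and Efcab9 fell short. The 6 other members were never called, and the signs of Catsperb, Catsperg1, Catsperg2 and Catsperz changed in some alternatives. From FPKM, the ratio differences were 1.09 for Efcab9 to Catsperz, 1.22 for Catsper1 to Catsper2 and 0.21 for Catsper3 to Catsper4, and each passed with an adjusted exact permutation p of 0.038. From CPM the first 2 ratios already had the smallest exact permutation p, 0.029, with differences of 1.09 and 1.24. Their lower adjusted p thus came from the adjustment over the 4 ratios, which depends on the other p-values. When a library was left out the exact permutation test of a ratio could not go below p = 0.057. The CatSper-associated genes called higher numbered 1 to 2 when a library was left out, with Tmem249 lost without replicate 1 of the libraries labelled Tmem232-/-. The call of Adcy10 was lost in 6 alternatives.

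With the replicate number as a block (replicate block) 4 members were called higher and 0 lower, and Adcy10 was lost (adjusted p = 0.082). The labels do not say whether equal numbers pair mice. Same-numbered deviations correlated at -0.33 to 0.07 and differently numbered ones at -0.32 to 0.39. Such correlations cannot decide whether the mice were paired. Scalings moved the median log2 fold change of all genes by less than 0.1.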
